A study of Homo sapiens with 108 samples.

Results

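C32TG, a human melanoma line, was compared at baseline with 5 other melanoma lines (92-1, Colo679, HMV-I, HMV-II and MeWo) on 6 arrays of unirradiated C32TG cells, out of 36 unirradiated arrays, in a series that also holds 72 irradiated ones. The study exposed each line to 2 Gy of carbon ions or X-rays and collected RNA 1 h and 3 h later. Each beam had unirradiated samples (0 Gy) labelled as its own, which gives a C-ions control set and an X-rays control set of 18 arrays each, with 3 arrays for each of 6 lines. In each set, the mean of C32TG was set against the mean of the 5 line means on the log2 scale, so that a positive difference means a higher value in C32TG. All 6 are established cell lines. C32TG descends from the melanoma line C32 and was selected for resistance to thioguanine, a purine analogue. 92-1 came from a melanoma of the eye, HMV-I and HMV-II from melanoma of the vagina, and Colo679 and MeWo from melanoma of the skin. The labels name no culture, passage or batch, so a trait of the line and a state of its culture cannot be told apart, and p-values over arrays measure only the spread between these arrays.

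Melanocytes make pigment in melanosomes, under the transcription factor MITF, which drives genes such as TYR, PMEL and MLANA, and melanoma lines keep this programme to different degrees. HLA class II molecules present peptides to helper T cells and are normally made by immune cells, while part of human melanomas also make them. Thioguanine becomes toxic only after HPRT1, the enzyme that salvages hypoxanthine and guanine, has turned it into a nucleotide.

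Values are log2 spot intensities after quantile normalization, on which 1 unit is a 2-fold difference and 40% of all values lay below -0.30. A value below that limit is called dim here and carries little information on level. The highest value on any array was 9.53. Of 54359 probes, 33997 were kept, and 17493 of them named 14186 genes, each given by its brightest kept probe. Replicate arrays correlated with r = 0.988 to 0.998, and missing values numbered 1034 to 5558 per unirradiated array. The median SD between arrays of a line was 0.103 in the C-ions set and 0.0961 in the X-rays set, and that between the means of the 5 other lines was 0.392 and 0.358. All 7 measured melanoma markers (SOX10, MITF, PMEL, MLANA, TYR, S100B and TYRP1) lay above the dim limit in C32TG in both sets, with MLANA the lowest at 0.45 in the C-ions set.

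Most probes differed between C32TG and the other lines when only the spread between arrays was counted. By limma's test with adjusted p under 0.05, 22173 probes (65.2%) differed in the C-ions set and 24263 (71.4%) in the X-rays set, and 17834 (52.5%) differed with the same sign in both. A stricter call was therefore used for genes. A gene was called set apart when it passed in both sets with the same sign, differed by at least 2-fold in each, and had all 3 C32TG arrays above, or all below, every one of the 15 arrays of the other lines in each set. This held for 953 probes higher in C32TG (2.8%) and 489 lower (1.44%), and for 479 genes higher (3.38% of 14186) and 281 lower (1.98%). Of the set-apart genes, 188 had at least 1 other kept probe, and such a probe met the same call at 55 of them and had the opposite sign at 34. Higher probes made up 66.1% of these calls, against 75.9% with median centring and 80% with values as deposited. The median difference over all genes was -0.09, against 0.01 and 0.07 under those other scalings, so small differences have no settled sign. Of the set-apart genes, 93 were at least 8-fold higher and 23 at least 8-fold lower in C32TG. The same call made for each other line gave between 285 and 819 higher genes and between 187 and 592 lower ones, so C32TG lay within the range of the lines. Of the 760 genes set apart in C32TG, the nearest line was most often HMV-II among the higher genes (124) and MeWo among the lower genes (64). Line means of C32TG correlated across the 33997 probes most closely with HMV-II (r = 0.927) in the C-ions set and with MeWo and Colo679 (both 0.921) in the X-rays set, and least with HMV-I (0.870 and 0.866). These correlations describe probes that share the same arrays.

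**Figure D1:**
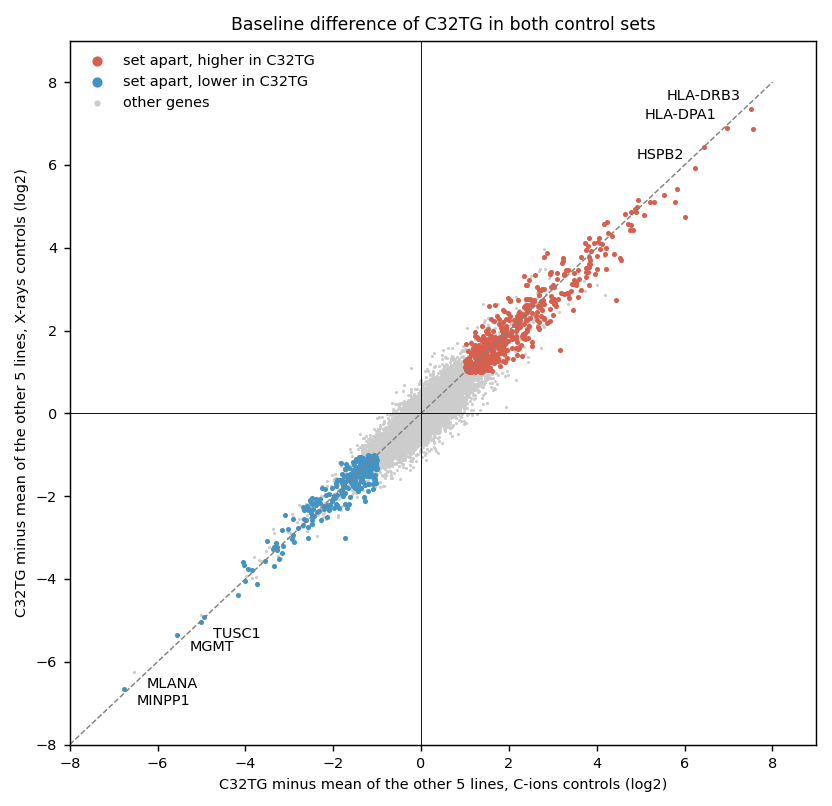
Each point is a gene, with the log2 difference of C32TG from the mean of the other 5 lines in the C-ions controls on the x axis and in the X-rays controls on the y axis. Set-apart genes, 479 higher and 281 lower in C32TG, lie along the dashed line of equality, with MINPP1 at -6.78 and -6.66 and HLA-DRB3 at 7.52 and 7.35.

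Several genes of HLA class II were high in C32TG and dim or low in the other lines, among them HLA-DRB3, HLA-DPA1, HLA-DRB1 and HLA-DPB1. Where the other lines were dim, the size and rank of a difference rest on dim values. Of 20 measured genes of HLA and antigen presentation, 7 were set apart with higher values in C32TG and 0 with lower ones, against 3.38% and 1.98% of all genes. These 7 were the class II chains HLA-DRA, HLA-DRB1, HLA-DPA1 and HLA-DPB1, the peptide exchanger subunit HLA-DMA, the class I molecule HLA-E and the immunoproteasome subunit PSMB9. HLA-DRA, HLA-DRB1 and HLA-DPB1 were dim in every group of the other lines and were kept only through C32TG. Genes dim in all lines are not among the 20. The median difference was 1.04, against -0.09 over all genes. At 13 of the 20, values were higher in C32TG by the array test in both sets, and at 2 lower, against 3475 higher and 4693 lower of all 14186 genes. HLA-DRB3 and HLA-DQB1, further class II beta chains outside the list, were set apart as well.

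The promoters of 4 class II genes that were high together in C32TG are shown, and that of HLA-DPA1, also high, is not. The 4 include every class II window that held the letters marked below, so the choice is no evidence on these letters. Each window runs from 250 bases before to 50 after the start of the RefSeq gene (GRCh38.p14), in the direction of the gene, and capitals mark the letters CTGATTGG, the core of the Y box of class II promoters, which was searched on both strands. The windows lie at chr6:32589799-32590098 (minus strand, HLA-DRB1), chr6:32666608-32666907 (minus strand, HLA-DQB1), chr6:32953048-32953347 (minus strand, HLA-DMA) and chr6:33075740-33076039 (plus strand, HLA-DPB1).
HLA-DRB1: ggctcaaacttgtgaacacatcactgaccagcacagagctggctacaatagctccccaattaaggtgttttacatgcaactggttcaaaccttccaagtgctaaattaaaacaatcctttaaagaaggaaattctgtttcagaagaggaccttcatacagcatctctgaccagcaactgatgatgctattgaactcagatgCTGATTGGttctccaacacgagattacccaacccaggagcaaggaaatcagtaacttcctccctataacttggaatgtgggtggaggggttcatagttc
HLA-DQB1: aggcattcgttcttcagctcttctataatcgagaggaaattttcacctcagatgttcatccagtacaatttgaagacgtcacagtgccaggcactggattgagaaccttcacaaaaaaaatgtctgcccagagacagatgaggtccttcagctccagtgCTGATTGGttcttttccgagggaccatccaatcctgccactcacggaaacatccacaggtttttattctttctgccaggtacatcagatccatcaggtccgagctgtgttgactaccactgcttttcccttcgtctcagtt
HLA-DMA: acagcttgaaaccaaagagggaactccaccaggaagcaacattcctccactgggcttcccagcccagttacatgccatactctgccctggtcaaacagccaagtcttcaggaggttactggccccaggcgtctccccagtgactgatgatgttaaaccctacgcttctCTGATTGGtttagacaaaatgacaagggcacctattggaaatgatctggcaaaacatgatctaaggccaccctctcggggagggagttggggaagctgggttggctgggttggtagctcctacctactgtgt
HLA-DPB1: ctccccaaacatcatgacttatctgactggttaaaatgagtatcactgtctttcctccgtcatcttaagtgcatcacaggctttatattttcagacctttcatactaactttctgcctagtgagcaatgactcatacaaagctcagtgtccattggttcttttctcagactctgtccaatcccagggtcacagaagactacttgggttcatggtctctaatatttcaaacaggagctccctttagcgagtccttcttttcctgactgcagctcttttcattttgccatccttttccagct
The letters occurred once in each of the first 3 windows and not in that of HLA-DPB1. They occurred in 1393 of all 35116 promoter windows (3.97%), and in 3 of the 9 genes with a window from a list of class II genes, CD74 and CIITA. The first count is of windows and the second of genes, so the shares are not in like units.

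HLA-DRA, the alpha chain of HLA-DR, read 3.47, 3.33 and 3.51 on the C32TG arrays of the C-ions set, against -1.09 to -0.74 (median -0.93) on the arrays of the other lines. In the X-rays set it read 3.27, 3.31 and 3.34 in C32TG, against -1.25 to -0.74 (median -0.96) in the other lines. C32TG was the only line of the 6 with HLA-DRA above the dim limit. Each value averages over a culture, so fewer cells with an mRNA and less of it per cell cannot be told apart. The difference was 4.35 ± 0.07 (SE, adjusted p = 4.31e-21) in the C-ions set and 4.29 ± 0.08 (adjusted p = 9.33e-22) in the X-rays set, and with dim values raised to the limit C32TG was at least 12.7-fold higher on the mean of both sets. The same basis holds for every other fold given as a bound.

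HLA-DRB1, a beta chain of HLA-DR, read 4.60, 4.57 and 4.47 in C32TG in the C-ions set, against -1.51 to -0.80 (median -1.35) in the other lines. Its X-rays values were 4.03, 4.22 and 3.96 in C32TG, against -1.72 to -1.02 (median -1.35) in the other lines. All arrays of the other lines were dim, and C32TG was at least 24.4-fold higher. HLA-DRB3, another DR beta chain, averaged 7.19 ± 0.15 in C32TG in the C-ions set (SD, n = 3) and -0.33 ± 1.05 over the other lines (SD, n = 5), and 6.86 ± 0.11 against -0.49 ± 0.89 in the X-rays set. Genes of the DRB family are near copies of each other, so that their probes may not tell them apart and the share of each gene in these values is uncertain.

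HLA-DPA1, the alpha chain of HLA-DP, read 8.46, 8.39 and 8.60 in C32TG in the C-ions set, against 0.10 to 3.58 (median 1.45) in the other lines, and 8.27, 8.19 and 8.33 in the X-rays set, against -0.06 to 3.12 (median 1.37). Colo679 was the closest of the other lines, with means of 3.50 and 3.03. A second probe of HLA-DPA1 differed by 3.58 in the C-ions set and 3.27 in the X-rays set. HLA-DPB1, its partner chain, read 4.86, 5.11 and 5.25 in C32TG in the C-ions set, against -1.01 to -0.35 (median -0.71) in the other lines, and 4.17, 4.50 and 4.29 in the X-rays set, against -1.31 to -0.48 (median -0.72). The other lines were dim throughout, and C32TG was at least 31.9-fold higher. HLA-DQB1, the beta chain of HLA-DQ, read 4.49, 4.59 and 4.65 in C32TG in the C-ions set, against -0.81 to 1.23 in the other lines, and 3.51, 3.74 and 3.73 in the X-rays set, against -0.72 to 0.39.

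HLA-DMA, which helps load peptides onto class II molecules, averaged 6.60 ± 0.05 in C32TG and 1.82 ± 1.08 over the other lines in the C-ions set, and 6.12 ± 0.11 in C32TG and 1.57 ± 1.05 over the other lines in the X-rays set. Its second probe differed by 1.67 and 0.87 and was not set apart. Not all class II genes followed. HLA-DMB, the partner of HLA-DMA, differed by 0.92 and 0.48 and was not set apart. HLA-DOA, a modulator of HLA-DM, differed by 1.32 and 0.87 on its brightest probe, which was not set apart, and by 5.22 and 4.58 on another, which was. HLA-DQA1 differed by -0.01 (adjusted p = 0.949) and -0.11 (adjusted p = 0.207). CIITA, the master activator of class II genes, read 1.29 to 1.57 in C32TG in the C-ions set, against 1.15 to 1.95 in the other lines, and 1.59 to 1.68 in the X-rays set, against 1.16 to 2.16, with differences of -0.14 (adjusted p = 0.126) and -0.12 (adjusted p = 0.168) whose sign turned under both other scalings. These CIITA values are those of the brighter of 2 kept probes, and the other probe is not given here. In all, by the brightest probe of each, 7 of 11 genes in a group of class II genes and CIITA, put together after the values were seen, were set apart. HLA-DRA, HLA-DRB1 and HLA-DPB1 were dim in every group of the other lines and entered this count only because C32TG was high. Genes dim in all lines were not counted, so the share of 7 of 11 is no separate evidence.

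**Figure D2:**
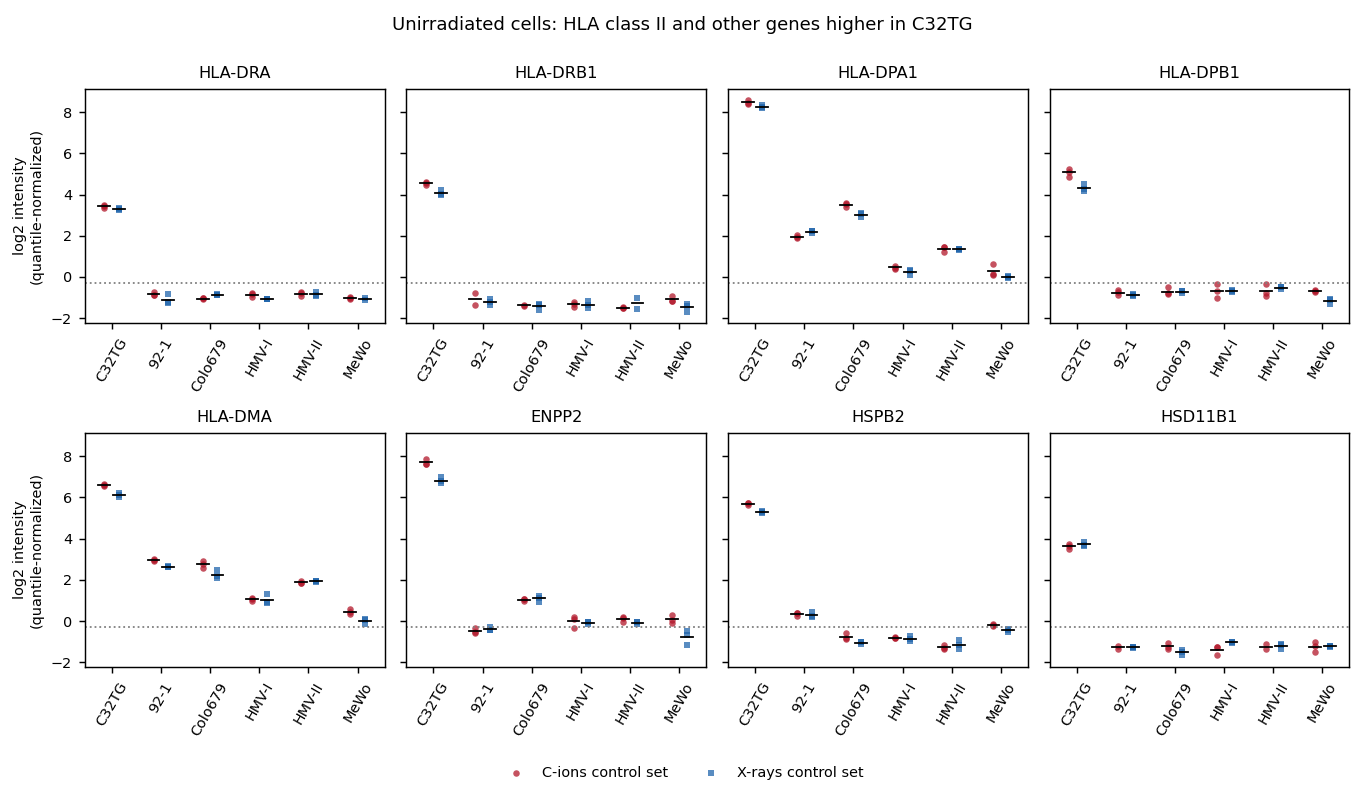
Each panel gives the log2 intensity of 1 gene in the 6 unirradiated lines, with C32TG at the left, 3 arrays in each control set (circles C-ions, squares X-rays), a bar at their mean and a dotted line at the dim limit of -0.30. HLA-DRA, HLA-DRB1, HLA-DPB1 and HSD11B1 are dim in all 5 other lines, while HLA-DPA1 and HLA-DMA reach 3.50 and 2.96 in the other lines.

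Class II genes also mark leukocytes, so leukocyte markers were read beside them. Of 9 markers, 7 had a value, and in C32TG only CD68 and MS4A1 lay above the dim limit in both sets. PTPRC, which encodes the pan-leukocyte protein CD45, averaged -0.69 and -0.97 in C32TG. Its means in the other lines ran from -1.01 to -0.79 in the C-ions set and from -1.07 to -0.90 in the X-rays set. CD14 averaged -0.86 and -0.93 and, like CD3D and LYZ, lay within the range of the other line means. ITGAM averaged below the dim limit in all lines and was highest in C32TG, at -0.68 and -0.64 against -1.62 to -0.94 and -1.51 to -1.30. MS4A1 lay below the other line means in the C-ions set and within them in the X-rays set. CD68, a macrophage marker, was set apart with lower values in C32TG, at 0.30 ± 0.09 in C32TG against 1.80 ± 1.10 over the other lines in the C-ions set. Summed over the markers on the linear scale, values ran from 5.10 to 5.53 on the C32TG arrays and from 5.32 to 16.7 on those of the other lines. Fibroblast markers summed to 18.3 to 24.4 in C32TG and 8.84 to 84.5 in the other lines, and keratinocyte markers to 2.97 to 4.26 and 2.71 to 16.3. Their part in the results was not tested.

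The class I pathway was mixed. HLA-E, a class I molecule read by natural killer cells, averaged 6.21 ± 0.03 in C32TG and 3.78 ± 0.66 over the other lines in the C-ions set, and 5.62 ± 0.05 against 3.79 ± 0.38 in the X-rays set. Its second probe differed by 1.77 and 1.01 and was not set apart. PSMB9 averaged 4.30 ± 0.19 in C32TG and 1.18 ± 2.15 over the other lines in the C-ions set, where HMV-II reached 3.80. ERAP2, which trims peptides for class I molecules, read 5.97, 5.97 and 5.95 in C32TG in the C-ions set, against -0.42 to 1.92 (median 1.44) in the other lines, and 5.87, 5.93 and 5.95 in the X-rays set, against -0.61 to 2.28 (median 1.29). B2M, the light chain of class I, differed by 2.26 on the mean of both sets without being set apart. The class I molecule HLA-F differed by -0.67 and -0.99 and NLRC5, an activator of class I genes, by -0.64 and -0.71, both lower in C32TG by the array test in both sets. TAPBP, which helps load peptides onto class I molecules, differed by 0.04 and -0.81.

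Of 19 measured interferon-stimulated genes, 5 were set apart with higher values in C32TG and 0 with lower ones, against 3.38% and 1.98% of all genes. Their median difference was 0.70. By the array test in both sets, 11 of the 19 were higher and 3 lower, against 3475 and 4693 of all 14186 genes. IFITM1, which restricts the entry of viruses, read 5.83, 5.65 and 5.85 in C32TG in the C-ions set, against -0.25 to 1.39 (median 0.86) in the other lines, and 5.74, 5.80 and 5.83 in the X-rays set, against -0.07 to 2.50 (median 0.86). The groups lay more than 3 units apart, and a second probe gave differences of 5.71 and 5.74. GBP1, a guanylate-binding protein induced by interferon gamma, differed by 3.35 and 2.88, the transcription factor IRF7 by 2.19 and 2.35, the antiviral MX1 by 1.87 and 1.90, and IFIT1, which binds viral RNA, by 1.38 and 1.25. IFI27 and BST2, also induced by interferon, had lower means in C32TG, by -1.77 and -2.39 on the mean of both sets, and were not set apart. Of 14 measured cytokines and chemokines, 1 was set apart, with lower values, against 1.98% of all genes. It was IL6, an inflammatory cytokine that averaged 1.57 ± 0.17 in C32TG and 3.07 ± 0.92 over the other lines in the C-ions set. The median difference of that list was -0.61, and by the array test in both sets 1 of the 14 was higher and 10 lower.

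C32TG had high TYR and MITF, near-dim MLANA and dim GPR143. Of 28 measured genes of melanocyte lineage and pigmentation, 1 was set apart with higher values in C32TG (BCL2A1) and 3 with lower ones (GPR143, TRPM1 and QPCT). The shares over all genes were 3.38% higher and 1.98% lower. The median difference of the list was -0.04. At 9 of the 28, values were higher by the array test in both sets and at 11 lower, against 3475 and 4693 of all 14186 genes. The promoters of TYR and GPR143 are shown because these pigment genes lay at opposite ends of the range in C32TG. Capitals mark CATGTG, the E box read by MITF, or its reverse complement CACATG, at chr11:89177625-89177924 (plus strand, TYR) and chrX:9765798-9766097 (minus strand, GPR143) of GRCh38.p14.
TYR: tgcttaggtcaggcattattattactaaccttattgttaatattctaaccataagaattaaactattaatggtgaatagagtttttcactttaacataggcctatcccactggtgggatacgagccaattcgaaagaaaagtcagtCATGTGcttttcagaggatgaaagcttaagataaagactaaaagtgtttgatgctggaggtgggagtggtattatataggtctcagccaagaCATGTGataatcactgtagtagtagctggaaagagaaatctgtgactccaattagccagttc
GPR143: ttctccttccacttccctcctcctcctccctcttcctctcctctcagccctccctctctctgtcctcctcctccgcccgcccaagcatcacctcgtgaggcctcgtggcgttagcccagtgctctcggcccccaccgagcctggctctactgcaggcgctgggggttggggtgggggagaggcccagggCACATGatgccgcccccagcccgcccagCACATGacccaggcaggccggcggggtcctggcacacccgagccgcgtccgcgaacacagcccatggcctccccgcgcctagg
Each window holds the letters 2 times. They occurred in 3897 of all 35116 windows (11.1%) and in 13 of the 26 pigmentation genes with a window, and not in that of MLANA. The first count is of windows and the second of genes with the letters in any window. A gene may have several windows, so the shares are not in like units.

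TYR, the rate-limiting enzyme of melanin synthesis, read 8.59, 8.50 and 8.52 in C32TG in the C-ions set, against -0.48 to 9.22 (median 8.26) in the other lines, and 8.20, 8.17 and 8.26 in the X-rays set, against -0.72 to 8.85 (median 7.98). C32TG lay within the range of the other 4 lines with high TYR, and HMV-I alone was low. MLANA, a melanosome protein used to diagnose melanoma, read 0.42, 0.44 and 0.50 in C32TG in the C-ions set, against -1.03 to 9.28 (median 8.80) in the other lines, and 0.72, 0.54 and 0.55 in the X-rays set, against -1.34 to 9.09 (median 8.83). Only HMV-I was lower, at means of -0.85 and -1.21, so MLANA was not set apart, and without HMV-I the difference was -8.38 on the mean of both sets and met the call. PMEL, which forms the fibrils of the melanosome, averaged 5.84 ± 0.04 in C32TG in the C-ions set and 5.33 ± 0.09 in the X-rays set (SD, n = 3), against 9.13 to 9.42 for the means of 92-1, Colo679, HMV-II and MeWo and 1.36 and 1.60 for HMV-I. It too met the call without HMV-I, with a difference of -3.75. MITF averaged 7.20 ± 0.09 in C32TG and 6.75 ± 1.35 over the other lines in the C-ions set, and 6.72 ± 0.13 and 6.51 ± 1.36 in the X-rays set, and its groups overlapped. SOX10, the neural crest factor upstream of MITF, was near the dim limit on this probe, at 0.98 ± 0.26 in C32TG against -0.01 ± 0.77 in the C-ions set, and KIT, the receptor of stem cell factor, differed by -0.34 and 0.25.

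GPR143, a receptor of the melanosome membrane, read -0.35, -0.40 and -0.52 in C32TG in the C-ions set, against -0.11 to 5.22 (median 4.21) in the other lines, and -0.41, -0.44 and -0.49 in the X-rays set, against -0.26 to 5.39 (median 3.62). C32TG was dim, and HMV-I at -0.07 and -0.15 lay close above it. TRPM1, a cation channel of melanocytes, averaged -0.05 ± 0.37 in C32TG and 2.20 ± 1.41 over the other lines in the C-ions set, and 0.09 ± 0.25 against 1.90 ± 1.12 in the X-rays set. QPCT, a glutaminyl cyclase that modifies the ends of peptides, differed by -4.94 and -4.92, again with HMV-I close above C32TG, and it lost the call when dim values were raised. BCL2A1, an anti-apoptotic gene of the BCL2 family, read 6.49, 6.35 and 6.12 in C32TG in the C-ions set, against -1.17 to 3.90 (median -0.11) in the other lines, and 6.66, 6.79 and 6.70 in the X-rays set, against -1.11 to 4.55 (median 2.26). Colo679 and HMV-II were the nearest lines, at means of 3.61 and 3.77 in the C-ions set.

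HPRT1 mRNA was present in C32TG. It read 3.98, 4.12 and 4.10 in the C-ions set, against 3.86 to 5.49 (median 4.35) in the other lines, and 4.23, 4.09 and 4.27 in the X-rays set, against 4.07 to 5.59 (median 4.43). The difference was -0.43 ± 0.10 (SE) in each set, with adjusted p = 6.30e-04 and 3.42e-04, and the groups overlapped. An array reads the amount of mRNA and not enzyme activity. Of 23 measured genes of purine salvage, purine synthesis and thiopurine handling, 0 were set apart in either direction. Over all genes 3.38% were set apart higher and 1.98% lower, so 0 of 23 does not tell this list from all genes. Its median difference was -0.27. By the array test in both sets, 3 were higher and 10 lower, against 3475 and 4693 of all 14186 genes. The thiopurine methyltransferase TPMT differed by 0.59 and the first enzyme of purine synthesis, PPAT, by -1.04, on the mean of both sets.

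CDKN2A, which encodes inhibitors of the cell cycle, was dim in C32TG, at -0.80, -1.14 and -1.01 in the C-ions set, against -0.99 to 4.22 (median 1.08) in the other lines. In the X-rays set it read -0.69, -0.81 and -0.95 in C32TG, against -0.87 to 4.10 (median 0.83). Colo679 was as dim, at means of -0.86 and -0.84, and without it CDKN2A met the call. MTAP, the neighbouring gene that salvages methylthioadenosine, averaged 4.53 ± 0.08 and 4.54 ± 0.07 in C32TG, inside the range of the other lines. CDK4, a kinase of the cell cycle, was set apart with lower values. It read 6.96, 6.93 and 6.98 in C32TG in the C-ions set, against 7.42 to 8.24 (median 8.10) in the other lines. Its X-rays values were 6.94, 6.88 and 6.88 in C32TG, against 7.42 to 8.28 (median 8.01). Its difference of -1.04 and -1.05 lay just past the 2-fold limit and did not meet it with median centring, with values as deposited, or without HMV-I or HMV-II, and its second probe, at -0.87 on the mean of both sets, was not set apart. Of 16 measured genes of G1 control, 0 were set apart with higher values and CDK4 alone with lower ones. Of 25 genes of G2 phase and mitosis, 0 were set apart. Over all genes 3.38% were set apart higher and 1.98% lower, so these counts do not tell the 2 lists from all genes.

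The genes with the largest differences outside HLA included secreted enzymes and matrix proteins. ENPP2, or autotaxin, a secreted enzyme that makes lysophosphatidic acid, read 7.64, 7.60 and 7.86 in C32TG in the C-ions set, against -0.56 to 1.09 (median 0.11) in the other lines, and 6.69, 6.98 and 6.79 in the X-rays set, against -1.16 to 1.23 (median -0.14). With dim values raised to the limit, C32TG stood 140-fold above the mean of the other lines. HSPB2, a small heat shock protein of muscle, read 5.74, 5.62 and 5.74 in C32TG in the C-ions set, against -1.38 to 0.41 (median -0.76) in the other lines, and 5.35, 5.23 and 5.31 in the X-rays set, against -1.35 to 0.45 (median -0.88). HSD11B1, which regenerates active cortisol, read 3.76, 3.49 and 3.63 in C32TG in the C-ions set, against -1.67 to -1.0 (median -1.24) in the other lines, and 3.84, 3.69 and 3.66 in the X-rays set, against -1.63 to -1.0 (median -1.25). The other lines were dim on every HSD11B1 array, and C32TG was at least 15.7-fold higher.

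Other genes at the top of the range were high in 1 other line as well. NPTX1, a secreted neuronal pentraxin, averaged 6.36 ± 0.08 in C32TG in the C-ions set, against 3.36 in HMV-II and values from -1.02 to -0.87 for the means of the other 4 lines. ALDH1A1, which makes retinoic acid, averaged 6.17 ± 0.19 in C32TG against 3.55 in Colo679, and in the X-rays set 4.86 ± 0.34 against 3.90. LOXL4, which cross-links collagen, averaged 5.93 ± 0.11 in C32TG against 5.28 in Colo679. SPON2, a secreted matrix protein, averaged 6.34 ± 0.21 in C32TG against 4.06 in 92-1, and MGP, an inhibitor of calcification, 5.59 ± 0.09 against 2.84 in Colo679. Their differences from the mean of the 5 lines were 6.44 for NPTX1, 6.01 for ALDH1A1, 4.93 for LOXL4, 5.52 for SPON2 and 5.31 for MGP in the C-ions set.

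Part of the matrix and adhesion genes were set apart with higher values, against 3.38% of all genes. Of 34 measured genes of collagens, laminins and matrix, 7 were set apart higher and 0 lower (median difference 0.34), and of 31 integrins, cadherins and adhesion genes 4 were set apart higher and 0 lower (median 0.36). By the array test in both sets, 3475 of all 14186 genes were higher and 4693 lower. Of the 34, 17 were higher and 8 lower, and of the 31, 16 were higher and 8 lower. Among the lower ones, the secreted phosphoprotein SPP1 differed by -3.36 and -2.90 and the proteoglycan LUM by -3.47 and -3.24. SPARC, a matricellular protein, read 8.67, 8.58 and 8.59 in C32TG in the C-ions set, against 0.71 to 7.55 (median 5.90) in the other lines, and 8.47, 8.44 and 8.30 in the X-rays set, against 0.61 to 7.21 (median 6.38). The basement membrane collagens COL4A1 and COL4A2 differed by 3.42 and 3.76 in the C-ions set and by 2.96 and 3.30 in the X-rays set, while the dimmer second probe of each gave 0.18 and 0.00 on the mean of both sets. COL6A2, a microfibrillar collagen, differed by 3.26 and 2.87, the laminin chain LAMA4 by 3.44 and 3.13, the fibril-associated collagen COL16A1 by 2.94 and 3.37, and MMP3, a protease that degrades matrix, by 3.22 and 3.75. NCAM1, a neural adhesion molecule, averaged 5.08 ± 0.12 in C32TG and 1.78 ± 1.12 over the other lines in the C-ions set, and the semaphorin receptor NRP1 averaged 3.94 ± 0.17 and 1.13 ± 1.87. A second probe differed by 1.21 for NRP1, on the mean of both sets, and was not set apart. The integrin chains ITGB3 and ITGA6 differed by 2.22 and 2.17 in the C-ions set and by 2.27 and 1.86 in the X-rays set, with a second probe of ITGB3 at 2.32 on the mean of both sets that was not set apart, and ITGA6 lost the call with median centring and with values as deposited.

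Genes of the invasive or dedifferentiated melanoma state did not move as 1 block. Of 25 measured, 5 were set apart higher (THBS1, TNC, FN1, SOX2 and CD44) and 1 lower (CCN1), against 3.38% and 1.98% of all genes. Their median difference was 0.38. FN1, or fibronectin, averaged 8.64 ± 0.09 in C32TG in the C-ions set, close above Colo679 at 8.38 and HMV-II at 8.17. THBS1, or thrombospondin, averaged 4.14 ± 0.04 in C32TG and 0.33 ± 0.98 over the other lines, and TNC, or tenascin C, averaged 6.37 ± 0.31 and 1.93 ± 2.02. The stem cell factor SOX2 differed by 2.41 and 2.58, the hyaluronan receptor CD44 by 1.62 and 1.67, and the matricellular CCN1 by -1.58 and -1.71. AXL, a receptor tyrosine kinase that marks the invasive state, differed by -0.41 and -0.28, within the range of the other lines.

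Among genes lower in C32TG, MINPP1 and MGMT stood out. MINPP1, which removes phosphates from inositol polyphosphates, read -0.90, -1.41 and -1.26 in C32TG in the C-ions set, against 5.12 to 6.48 (median 5.60) in the other lines, and -0.98, -1.28 and -1.35 in the X-rays set, against 4.84 to 6.09 (median 5.36). It was dim in C32TG and bright in all 5 other lines, and C32TG was at least 56.5-fold lower. MGMT, which repairs alkylated guanine in DNA, read -0.95, -0.99 and -1.60 in C32TG in the C-ions set, against 2.73 to 5.76 (median 4.51) in the other lines, and -1.16, -0.84 and -1.52 in the X-rays set, against 2.20 to 5.21 (median 4.80). C32TG was at least 24.0-fold lower. TUSC1, a candidate tumour suppressor, was missing on 1 C32TG array of each set and read -1.51 and -1.26 on the others in the C-ions set, against 3.13 to 4.14 (median 3.59) in the other lines, and -1.30 and -1.49 in the X-rays set, against 2.95 to 4.49 (median 3.53). SERPINB1, an inhibitor of neutrophil proteases, read 1.70, 1.90 and 1.75 in C32TG in the C-ions set, against 4.22 to 6.17 (median 5.71) in the other lines, and 1.21, 1.26 and 1.19 in the X-rays set, against 4.51 to 6.22 (median 5.19). Unlike the other 3 genes, SERPINB1 remained above the dim limit in C32TG, at a 15.2-fold lower level.

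**Figure D3:**
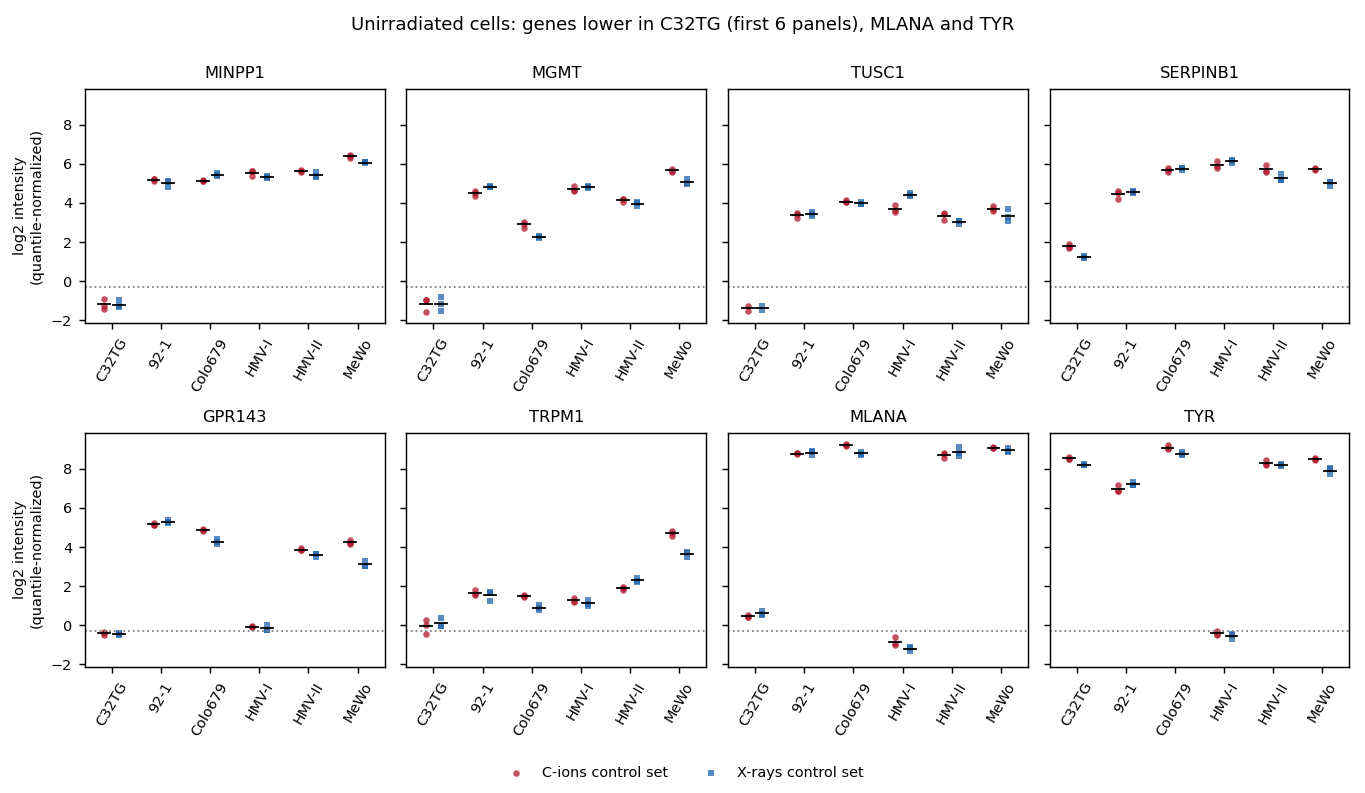
Each panel gives the log2 intensity of 1 gene in the 6 unirradiated lines, with C32TG at the left, 3 arrays in each control set (circles C-ions, squares X-rays), a bar at their mean and a dotted line at the dim limit of -0.30. MINPP1, MGMT and TUSC1 are dim in C32TG and bright in the 5 other lines, MLANA is low in C32TG and HMV-I, and TYR is low in HMV-I.

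Further genes were among the 15 set apart with the largest lower differences. HRK, a pro-apoptotic gene missing on 1 C32TG array of each set, averaged -1.39 ± 0.30 in C32TG (n = 2) and 2.56 ± 0.59 over the other lines in the C-ions set. BIRC7, or livin, an inhibitor of apoptosis made by melanoma cells, averaged -0.04 ± 0.14 in C32TG and 3.96 ± 2.41 over the other lines, with HMV-I close at 0.27. SH2D2A, an adaptor of T cell signalling, differed by -4.17 and -4.38. HPDL, a mitochondrial dioxygenase-like enzyme, differed by -4.07 and -3.59, the transglutaminase TGM4 by -3.86 and -3.78, the membrane protein TMC6 by -3.55 and -3.56, and the centrosomal protein NINL by -3.35 and -3.69. FAM24A differed by -3.23 and -3.52 and SMCO4 by -3.37 and -3.28. In the sterol list, 1 of 20 measured genes was set apart, with lower values, against 1.98% of all genes (list median -0.26). It was DHCR7, the last enzyme of cholesterol synthesis, at 3.37 ± 0.09 in C32TG and 5.18 ± 0.71 over the other lines in the C-ions set.

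The signalling lists held 1 or 2 set-apart genes each, against 3.38% higher over all genes. FLT1, a receptor for vascular endothelial growth factor, was the 1 of 22 receptor tyrosine kinases and ligands. It read 0.75 and 0.67 in C32TG in the C-ions set with 1 array missing, against -1.38 to -0.71 in the other lines. FLT1 was dim on all those arrays of the other lines and was kept only through C32TG, so its count is no evidence on the list. It lost the call when dim values were raised. ETV1, a transcription factor downstream of MAPK, was the 1 of 15 MAPK genes, at 6.91 ± 0.12 in C32TG and 3.81 ± 2.83 over the other lines in the C-ions set, where HMV-II alone was dim, while its second probe gave 0.99 on the mean of both sets. PDK1, a kinase that inhibits pyruvate dehydrogenase, was the 1 of 16 genes of the PI3K pathway list, and differed by 1.60 and 2.28. SFRP1, a secreted antagonist of Wnt, and BMP4, a bone morphogenetic protein, were the 2 of 25 genes of BMP, TGF-beta and Wnt signalling, and differed by 3.01 and 1.22 in the C-ions set and by 2.37 and 1.86 in the X-rays set. BMP4 lost the call without Colo679, without HMV-I and against the median of the other lines. HOXB7, a homeobox factor, was the 1 of 19 HOX genes and differed by 3.04 and 2.67. DDB2, which recognises ultraviolet damage in DNA, was the 1 of 19 genes of the p53 pathway and averaged 4.80 ± 0.05 in C32TG and 2.00 ± 1.33 over the other lines in the C-ions set. NQO1, a quinone reductase under NRF2, was the 1 of 13 NRF2 genes and averaged 7.40 ± 0.09 and 5.59 ± 1.22. Of 12 measured cancer-testis antigens, 7 fibroblast markers and 3 keratinocyte markers, 0 were set apart.

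**Figure D4:**
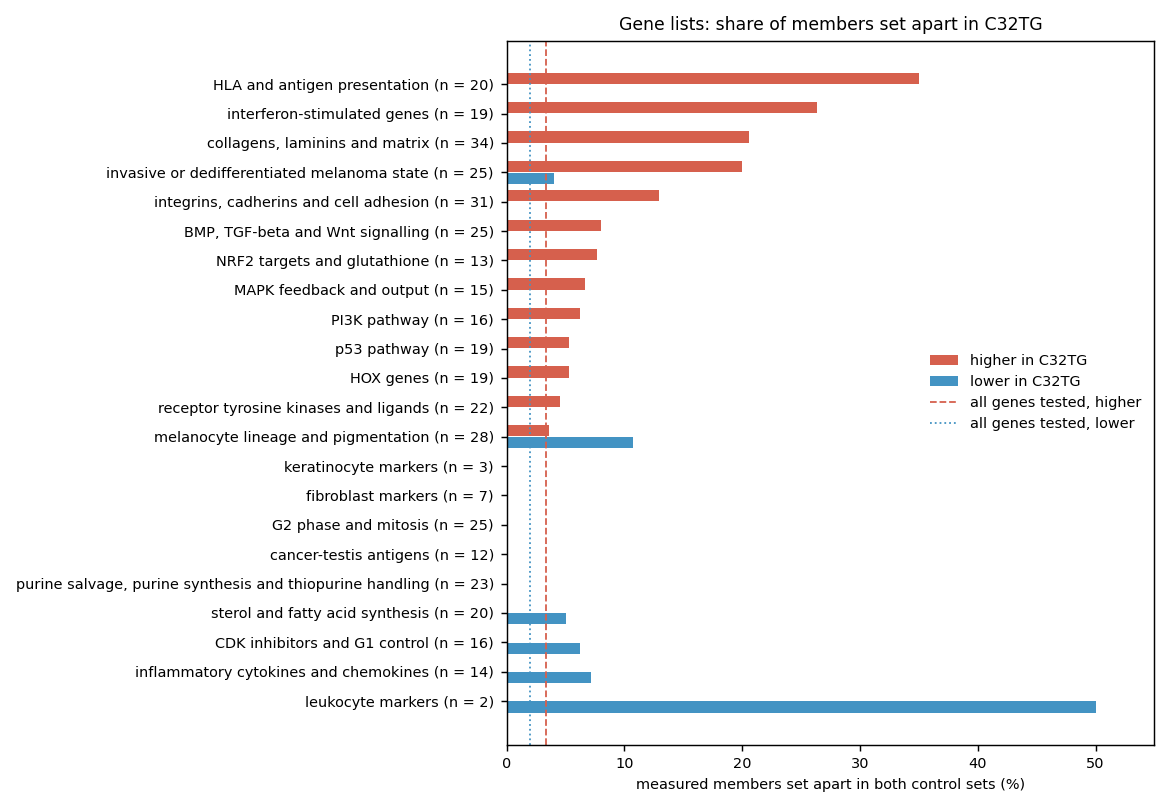
Bars give, for each of 22 gene lists (n, measured members), the share of members set apart with higher values (red) or lower values (blue) in C32TG, and vertical lines give the share over all genes tested, 3.38% higher and 1.98% lower. HLA and antigen presentation (7 of 20) and interferon-stimulated genes (5 of 19) have the longest bars for higher values, and the leukocyte bar rests on 1 of 2 genes.

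When the line was taken as the unit, with 1 mean per line, few genes lay beyond the spread between lines. In this test C32TG was assumed to vary like the other lines, and 40 probes (0.118% of 33997) passed in both sets by limma's adjusted p, 38 higher and 2 lower in C32TG, while 1056 had unadjusted p under 0.05 in both. The 40 became 23 without 92-1, 24 without Colo679, 25 without HMV-I, 25 with a filter on the mean over all arrays and 153 with low values raised to the limit. Genes called by their brightest probe were HLA-DRA, HLA-DRB1, HLA-DPB1, HLA-DQB1, ENPP2, HSPB2, HSD11B1, NLGN4X, DCC, DAB1, PCDHB10, ACAN, ANO1, MAB21L1 and UG0898H09, all higher, and MINPP1 and TUSC1, both lower. Of these, HLA-DRA, HLA-DRB1, HLA-DPB1, HSD11B1, NLGN4X, DCC, PCDHB10 and UG0898H09 were dim in every group of the other lines. They were kept only through C32TG, and the spread between lines that they exceeded was that of dim values. For them the test says little beyond C32TG being above the dim limit. Another probe of the gene was called, with higher values, for HLA-DPA1, HLA-DOA, ITIH5, PDX1, PREX2, SYNM, TSHZ2 and YIF1A. For HLA-DRB1 the adjusted p was 8.27e-04 in the C-ions set and 0.00141 in the X-rays set, and for MINPP1 it was 0.0115 and 0.00425. For HLA-DPA1, whose levels varied among the other lines, it was 0.184 and 0.136 on the brightest probe and 0.00418 and 0.0207 on the other. NLGN4X, a synaptic adhesion protein, read 3.84, 3.69 and 3.72 in C32TG in the C-ions set, against -1.38 to -0.74 in the other lines. DCC, a receptor for the guidance cue netrin, read 2.85, 2.64 and 2.94, against -1.67 to -0.82, and DAB1, the adaptor of reelin signalling, read 3.69, 3.54 and 3.69, against -0.46 to 0.37. ACAN, or aggrecan, the large proteoglycan of cartilage, read 5.39, 5.39 and 5.49, against 1.65 to 1.95. Their X-rays differences were 4.57 for NLGN4X, 4.13 for DCC, 3.42 for DAB1 and 2.82 for ACAN.

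Protocadherin beta genes, which lie side by side on chromosome 5 and encode adhesion proteins of neurons, were high together in C32TG. They were looked at after the values were seen. Of 14 measured, 11 were set apart with higher values in C32TG and 0 with lower ones, against 3.38% and 1.98% of all genes. Their median difference was 2.49. Of 16 measured protocadherin alpha and gamma genes of the same region, 1 was set apart (PCDHA13, by 1.36 and 1.09), with a median of 0.02. PCDHB9 read 3.86 to 4.0 in C32TG in the C-ions set, against -1.0 to 0.41 in the other lines, and 4.06 to 4.27 in the X-rays set, against -1.26 to 0.66. PCDHB16 read 4.16 to 4.35 in C32TG in the C-ions set, against -1.17 to 0.76, and PCDHB2 read 4.76 to 4.95, against -0.73 to 2.91. PCDHB10, called in the test over lines, read 2.72, 2.67 and 2.52, against -1.32 to -0.65. It was dim in every group of the other lines and was kept only through C32TG. The exceptions were PCDHB1, PCDHB12 and the pseudogene PCDHB19P, and PCDHB12 was bright in all lines, at 3.43 to 3.51 in C32TG and 2.03 to 3.80 in the others in the C-ions set. In the gene order of GRCh38.p14, PCDHB2, PCDHB3, PCDHB5, PCDHB6, PCDHB8, PCDHB16, PCDHB9, PCDHB10 and PCDHB11 formed the longest run of consecutive measured genes set apart in 1 direction, with 9 genes. Genes of this cluster resemble each other in sequence, so probes may read more than 1 of them, and this was not tested.

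**Figure D5:**
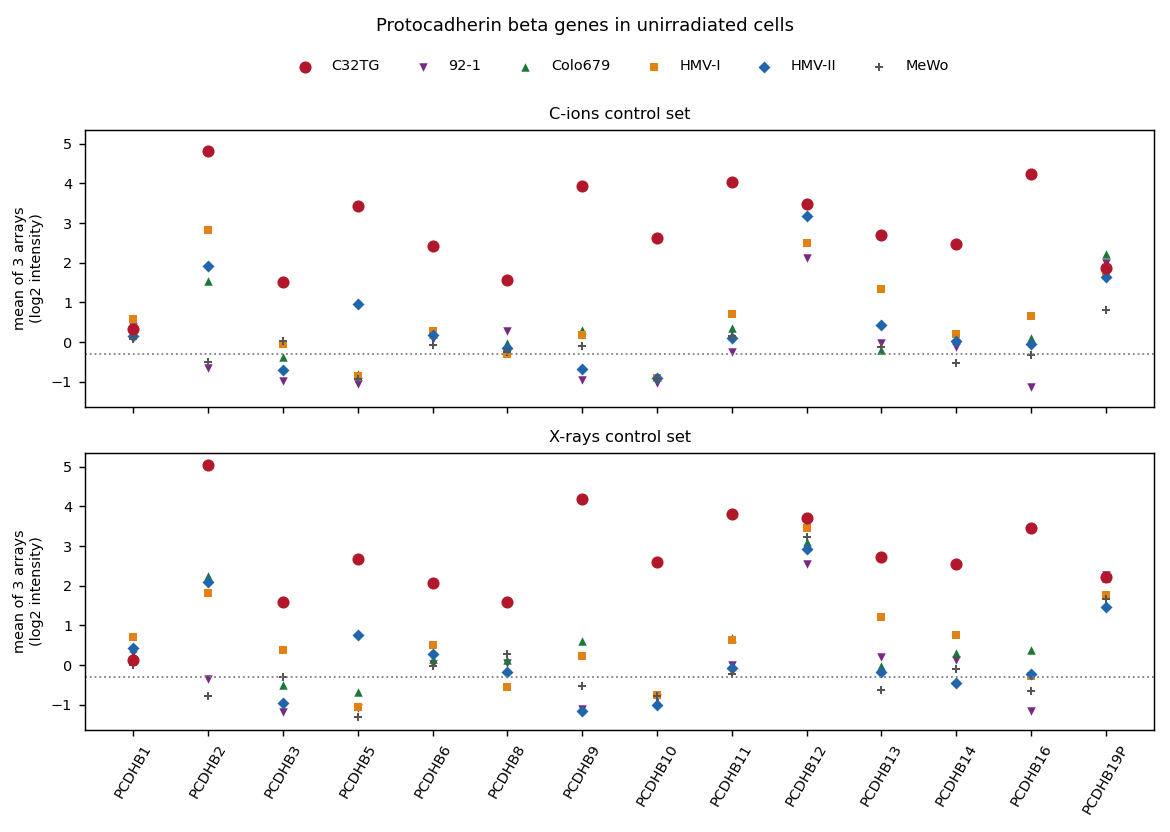
Points give the mean of 3 arrays (log2 intensity) of each protocadherin beta gene in each unirradiated line, with C32TG as large red circles, in the C-ions set (top) and the X-rays set (bottom), and the dotted line is the dim limit of -0.30. C32TG is clearly above all other lines at 11 of 14 genes in both sets, and not at PCDHB1, PCDHB12 and PCDHB19P.

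Each gene set apart in the controls was also read on the 72 irradiated arrays, which the call did not use, in 4 conditions (1 h and 3 h after 2 Gy of C-ions or X-rays). Of 451 higher genes with values in all 4, 451 had the same sign in all and 343 met the full call in all, and of 271 lower genes 271 had the same sign and 208 met the call. Over all 13789 genes tested there, 361 (2.62%) met the call in all 4 with higher values in C32TG and 248 (1.8%) with lower ones. HLA-DRA differed by 4.35 and 4.05 at 1 h and 3 h after C-ions and by 4.15 and 4.36 after X-rays. ENPP2 differed by 7.46 and 7.53 after C-ions and by 6.92 and 6.97 after X-rays, and MINPP1 by -6.72, -6.71, -6.68 and -6.46 in the same order. The lines' irradiated cells share their origin with the controls, so these arrays show that a difference recurred in further RNA of the same lines.

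The size of a difference was compared between the control sets. Differences of all 33997 probes correlated between sets with r = 0.916 (Spearman 0.839), in arrays of the same 6 lines. At 8417 probes (24.8%) the C32TG difference itself differed between sets by limma's adjusted p, against 4185 without replicate 2 and 5251 without replicate 3, and 613 probes were called in opposite directions in the 2 sets. Of the 760 set-apart genes, 251 differed in size between sets, and the median absolute gap over all 760 was 0.20. TNC had the largest gap among the named genes, at 6.01, 6.61 and 6.48 in C32TG in the C-ions set and 4.72, 5.27 and 5.32 in the X-rays set, with differences from the other lines of 4.43 and 2.74. ALDH1A1 followed, with differences of 6.01 and 4.75.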

How the data were processed

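RNA of 6 melanoma cell lines was labelled with biotin and hybridised to single-colour CodeLink whole human genome arrays, per the labels' protocols. The deposited table holds spot intensity on a linear scale, with medians of 1.02 to 1.26 on the 36 unirradiated arrays, and the software behind it is not given in the sources used here. It carries no background flags. The deposited intensities were transformed to log2 and quantile normalized over all arrays of the series. Groups follow the titles of the samples. A probe was kept with at least 2 of 3 values in each of the 12 unirradiated groups and with at least 1 line above the 40th percentile in both sets. limma (version 3.58.1, R 4.3.3; lmFit, eBayes with trend) was fitted per set on 18 arrays, two-sided, and p-values were adjusted by Benjamini-Hochberg over the kept probes, with a threshold of 0.05. All sentences with an adjusted p refer to it. SE is limma's standard error, SD over other lines is that of 5 line means, and SD in C32TG that of 3 arrays. The fits were tested on simulated data. The number of arrays limits the precision.

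Probe names come from the platform annotation, which gave 1 symbol for 23472 probes, several for 905 (left unnamed) and none for 29982. RefSeq (GRCh38.p14) held 23434 of the single symbols under the same Entrez identifier, and 0 changed. Several kept probes existed for 2772 genes. Promoter sequences are RefSeq's, for GRCh38.p14.

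Named are the 15 genes with the largest and the 15 with the smallest mean difference among set-apart genes, every set-apart member of 22 gene lists (548 genes, 402 measured; the 8 largest where more), and HPRT1, CDKN2A, MTAP, MITF, SOX10, KIT, TYR, PMEL, MLANA and AXL whatever their values. Other genes named were chosen after their values were seen. One planned gene is not reported here. The members and lists were chosen with earlier results of these data known, so counts over a list are not independent evidence. Alternatives were another scaling, filter or fold limit, a fit with the replicate number as a block, 1 fit of both sets, each replicate or line left out and the median of the other lines. Raising dim values for the printed bounds, the group of class II genes, the protocadherin groups and the runs of neighbouring genes were added after seeing the data.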

Additional observations from a re-analysis of the deposited data

Results flagged for a closer look

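At 35 of 78 named genes the difference of C32TG from the other lines itself differed between the control sets by limma's adjusted p, against 24.8% of all probes, or 8417, a number that was 4185 without replicate 2 and 5251 without replicate 3. The sign of the main difference was the same in both sets for all but MTAP and KIT. The following values are the C-ions difference minus the X-rays difference on the log2 scale. Among antigen presentation and interferon genes, the gap was 0.40 for HLA-DRB1, 0.67 for HLA-DPB1, 0.61 for HLA-E, 0.34 for PSMB9, 0.27 for IFITM1 and 0.47 for GBP1. Among matrix and adhesion genes it was 1.70 for TNC, 0.46 for COL4A2, 0.46 for COL4A1, -0.53 for MMP3, 0.32 for LAMA4, 0.42 for SPARC, 0.38 for COL6A2 and 0.31 for ITGA6. Among pigment genes it was -0.36 for GPR143, -0.45 for TRPM1, 0.56 for PMEL, -0.29 for MLANA and -0.59 for KIT. Other high genes had gaps of 0.70 for ENPP2, 0.30 for HSPB2, 1.25 for ALDH1A1, 0.38 for HOXB7, 0.64 for SFRP1, -0.64 for BMP4, 0.51 for DDB2, -0.68 for PDK1, 0.32 for NQO1 and 0.63 for FLT1. Other low or fixed genes had gaps of 0.40 for SERPINB1, -0.47 for HPDL, 0.34 for NINL, 0.28 for FAM24A, 0.31 for IL6 and -0.33 for MTAP. What differed between the sets of cultures or arrays was not tested.

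Single lines among the 5 others stood far from the remaining 4 at some genes, by the gap to the nearest line as a share of the whole range, in the C-ions and then the X-rays set. In a single set, chance passes the limit in about 1 in 20 groups of 5 values. A gene was flagged only when it passed in both sets for the same line and side. Both sets hold the same lines, so the chance rate of that rule is not known. HMV-I was far above the other lines for IL6 (0.766 and 0.853) and AXL (0.810 and 0.745), and far below them for TYR (0.776 and 0.835), PMEL (0.977 and 0.963) and MLANA (0.950 and 0.983). HMV-II was far above for NPTX1 (0.966 and 0.965) and far below for ETV1 (0.905 and 0.775). Colo679 was far above for ALDH1A1 (0.967 and 0.863).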

How the results depend on the processing

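Of the 78 genes named by rule, none that met the call in the main run or in an alternative run changed sign between them. Named genes that met it in neither, such as MTAP and KIT, were not part of that count. CIITA, outside the named genes and not set apart on its brightest probe, changed sign on that probe under both other scalings. Probes set apart numbered 1434 higher and 1056 lower with a limit of 1.5-fold, and 295 and 102 with 4-fold, against 953 and 489. With the line as the unit, 40 probes became 25 with a filter on the mean over all arrays, 153 with low values raised to the limit, 23 without 92-1, 24 without Colo679 and 25 without HMV-I. The count of differences between sets, 8417, ran from 4185 (without replicate 2) to 6158 when 1 replicate was left out, and was 5251 without replicate 3. Leaving out replicates gave 984 to 1012 set-apart probes higher, 494 to 593 lower, 17859 to 21708 calls in the C-ions set, 20954 to 23209 in the X-rays set and 36 to 40 by line. Median centring gave 1228 higher and 390 lower, and values as deposited 1317 and 330. Deviations of same-numbered arrays of 2 lines correlated at -0.21 to 0.22 (median 0.05) in the C-ions set and -0.12 to 0.31 (median 0.04) in the X-rays set. They were over 0.1 in 15 of 45 comparisons in the C-ions set and in 12 of 45 in the X-rays set. Arrays with different numbers were not compared, so these values cannot decide whether replicate numbers pair the arrays. The replicate block left 953 and 489 set apart and gave 22584, 24574 and 8873 calls for the C-ions set, the X-rays set and the difference between sets. Named genes that lost the call were ITGA6 (2.12) and CDK4 (-0.89) with median centring, CCN1 (-1.41), ITGA6 (2.18) and CDK4 (-0.83) with values as deposited, QPCT (-4.61) and FLT1 (0.77) with low values raised, BMP4 without Colo679 (1.32), without HMV-I (1.20) and against the median of lines (1.12), and CDK4 without HMV-I (-1.0) and HMV-II (-0.97). CDKN2A without Colo679 (-2.52) and PMEL (-3.75) and MLANA (-8.38) without HMV-I gained it. The cause of these changes was not tested. Dim signals limit the values: with no background flags, a fold against a dim group is only a bound.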

Other observations

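Runs of neighbouring measured genes set apart in 1 direction, in the gene order of GRCh38.p14, were looked for after the values were seen. Beside the protocadherin beta genes, the longest run held 4 genes on chromosome 15, all higher in C32TG: ACAN, the hyaluronan link protein HAPLN3, the milk fat globule protein MFGE8 and the hydrolase ABHD2. Runs of 3 higher genes lay on chromosome 1 (SLC41A1, RAB7B and SRGAP2), chromosome 11 (IFT46, ARCN1 and PHLDB1) and chromosome 7 (SYPL1, NAMPT and CCDC71L), and a run of 3 lower genes on chromosome 10 (LDB1, PPRC1 and NOLC1). Near MINPP1 on chromosome 10, ATAD1, a mitochondrial ATPase, was also set apart, with a mean difference of -2.33, while RNLS differed by -1.43, KLLN by -0.46 and ANKRD22 by 0.12 without being set apart. The neighbours of MGMT, MKI67 and GLRX3, differed by 0.03 and -0.34. FAM24B differed by -3.01 beside FAM24A at -3.38, while HTRA1, a protease 4 measured genes away, was set apart with a higher value, by 3.77. On chromosome 10 as a whole, 29 of 551 measured genes were set apart with lower values in C32TG (5.26%), against 1.98% of all genes. The labels give no copy number, and its part in these values was not tested.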
